A study of Mus musculus with 5 samples.

Results

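The mitochondrial respiratory chain and ATP synthase were followed through 4 stages of heart cell formation in embryoid bodies, aggregates in which mouse embryonic stem cells differentiate. The members were all probes whose gene name in the scanner files starts with Nduf, Sdha to Sdhd, Uqcr, Cox and a digit, or Atp5. They were 69 gene names with 78 probes, of 28845 gene probes in all. Complex I had 34 probes for 30 genes, complex II 5 probes for 4 genes, complex III 8 probes for 5 genes, complex IV 15 probes for 15 genes and complex V 14 probes for 13 genes. The last 2 probes, for Ndufaf1 and Cox7a2l, match the names but do not encode subunits of a single complex: Ndufaf1 is a complex I assembly factor, and Cox7a2l helps to join complexes III and IV. Ndufa4 carries a complex I name and was placed in complex IV, where its protein is now known to sit.

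The Nkx2.5 population held cardiac progenitors of day 7.5, the Flk1 population cardiac mesoderm of day 4.5, the Bra population early mesoderm of day 4.5, and the Rex1 population undifferentiated stem cells of day 0. Cells of each population were isolated because they carried the marker it is named for, and their total RNA was amplified and labelled. The labels used here name neither the stem cell line nor the promoter or antibody behind each marker. Each of 5 two-colour arrays compared a pair: 3 arrays set Nkx2.5, Flk1 or Bra against Rex1, and the other 2 set Nkx2.5 against Flk1 or against Bra. Rex1 was always in the Cy3 channel and Nkx2.5 always in the Cy5 channel, so dye and population cannot be told apart for them, while Bra and Flk1 were read once in each dye. No pair was hybridised more than once, so no difference between populations has a replicate check and no p-value is given.

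Complexes I to IV pass electrons from NADH and succinate to oxygen, and complexes I, III and IV pump protons across the inner mitochondrial membrane. Complex V, the ATP synthase, uses the returning protons to make ATP. Complex I takes electrons from NADH, complex II from succinate, complex III passes them from ubiquinol to cytochrome c, and complex IV, cytochrome c oxidase, delivers them to oxygen. Heart muscle depends on this chain for most of its ATP, whereas pluripotent stem cells draw heavily on glycolysis. All but a few subunits are encoded in the nucleus, and only nuclear genes are among the members.

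There were 2 readings of each log2 ratio. The first was the array of the pair. The second came from the other arrays: the route through Nkx2.5 for Bra or Flk1 over Rex1, the route through Rex1 for Nkx2.5 over Bra or Flk1, and, for Nkx2.5 over Rex1, the average of the Flk1 route and the Bra route. No array carried Flk1 against Bra, which was read by the route through Rex1 and again by the route through Nkx2.5. A probe was called higher or lower where both readings reached 0.5 on the same side of 0, a ratio of 1.41, and the brighter population was well above background on every array that carried it. Comparisons share arrays and channels, so their values are not independent of each other.

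The members are bright spots. Of the 78 probes, 73 were well above background in every channel of every array, and 62 lay among the brightest 25% of all probes. The disagreement between readings corresponded to an error of 0.131 in the log2 ratio of 1 array for those 73 probes, 0.169 for all 78 members, 0.117 for the brightest 25% of all probes and 0.244 for all probes. Brightness and precision therefore differ between the members and the array as a whole, and both backgrounds are given below. In bulk samples like these, fewer cells of a type and less RNA per cell cannot be told apart.

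The promoters of the members share sequence features that played no part in the choice of the genes. A window of 250 bases before to 50 bases after the start was at hand in RefSeq (GRCm38.p6) for 57 of the 69 genes, 61 windows in all. The 2 motifs searched first belong to regulators known for nuclear respiratory genes: GCGCA and GCGC with any 1 base between them, a form of the site of nuclear respiratory factor 1, and CCGGAAG, the core of ETS sites such as that of GABP, also called nuclear respiratory factor 2. Both strands were read. The first motif stood in 27.9% of the member windows and in 4.60% of all 32851 windows, and the second in 24.6% and 8.86%. At least 1 of these motifs was found in 45.9% of member windows and 12.6% of all windows. Member windows were also richer in G and C, with a median of 58.3% against 52.7%. C followed by G, which both motifs contain, stood a median of 20 times in member windows and 7 times in all windows. This composition favours both motifs, and its part in these shares was not tested. Of the other motifs searched, CCAAT stood in 36.1% and 37.4%, TATAAA in 11.5% and 13.6%, CACGTG in 9.84% and 7.15%, and CTA and TAG with any 4 bases between them, a form of the MEF2 site of muscle genes, in 1.64% and 3.69%. A match is a run of letters and not a shown binding site.

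Cox6a1 is shown because its window holds both respiratory motifs, and Cox7a1 and Atp5g1 because they were the lowest members in Nkx2.5 over Rex1 by the smaller of the 2 readings and hold none of them. Capitals mark matches of the respiratory motifs and the MEF2 motif on either strand, so that CTTCCGG is CCGGAAG read on the other strand. Matches of the other motifs searched are left in lower case. For CCAAT there are 5 in Atp5g1, 2 in Cox7a1 and 1 in Cox6a1. The Cox6a1 window is chr5:115348909-115349208 on the minus strand, the Cox7a1 window chr7:30183921-30184220 on the plus strand and the Atp5g1 window chr11:96075582-96075881 on the minus strand.
Cox6a1: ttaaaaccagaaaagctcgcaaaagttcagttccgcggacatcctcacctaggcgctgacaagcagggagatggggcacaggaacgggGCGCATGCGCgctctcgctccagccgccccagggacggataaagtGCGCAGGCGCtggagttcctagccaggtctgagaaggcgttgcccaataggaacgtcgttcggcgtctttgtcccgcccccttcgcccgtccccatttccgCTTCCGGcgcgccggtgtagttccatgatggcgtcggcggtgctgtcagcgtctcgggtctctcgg
Cox7a1: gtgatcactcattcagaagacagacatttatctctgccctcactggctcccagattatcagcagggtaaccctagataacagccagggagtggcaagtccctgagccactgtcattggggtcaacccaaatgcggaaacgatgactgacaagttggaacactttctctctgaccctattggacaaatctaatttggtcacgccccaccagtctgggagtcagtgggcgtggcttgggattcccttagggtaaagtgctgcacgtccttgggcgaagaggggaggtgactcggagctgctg
Atp5g1: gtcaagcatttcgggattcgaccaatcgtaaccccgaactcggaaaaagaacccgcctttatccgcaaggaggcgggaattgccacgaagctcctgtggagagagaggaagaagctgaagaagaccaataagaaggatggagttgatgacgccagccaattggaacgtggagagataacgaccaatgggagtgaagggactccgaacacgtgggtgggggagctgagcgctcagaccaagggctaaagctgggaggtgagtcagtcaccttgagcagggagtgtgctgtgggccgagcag

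Over the whole chain, almost no member passed the limit between any of the populations. In Nkx2.5 over Rex1, the widest step of the study, 1 of 78 members was called higher, where 7.44% of all probes were, and 0 were called lower, where 4.05% of all probes were. In Flk1 over Rex1, 0 of 78 were called, against 3.12% of all probes higher and 1.79% lower. In Bra over Rex1, 0 of 78 were called, against 4.14% of all probes higher and 1.94% lower. Among the differentiated populations few of all probes were called. In Nkx2.5 over Bra, 0 of 78 members were called, where the background was 1.16% higher and 0.714% lower. In Nkx2.5 over Flk1 it was 0 of 78, where the background was 1.58% and 1.04%. In Flk1 over Bra, 0 of 78 were called, against 0.295% of all probes higher and 0.378% lower. With backgrounds this low, counts of 0 among these populations say little about the members.

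Part of the gap between members and background moves with brightness. Among the 7212 probes of the brightest 25%, 2.79% were called higher and 2.94% lower in Nkx2.5 over Rex1, and between 0.0139% and 1.32% in each direction of the other comparisons. The members' readings also spread about as far as those of other bright probes: both readings lay within 0.5 of zero for 84.6% of members in Nkx2.5 over Rex1, against 86.4% of the brightest 25% and 67.0% of all probes. In Flk1 over Rex1 these shares were 93.6% of members, 92.5% of the brightest 25% and 71.5% of all probes. The part of brightness in the low count of calls was not tested.

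**Figure D1:**
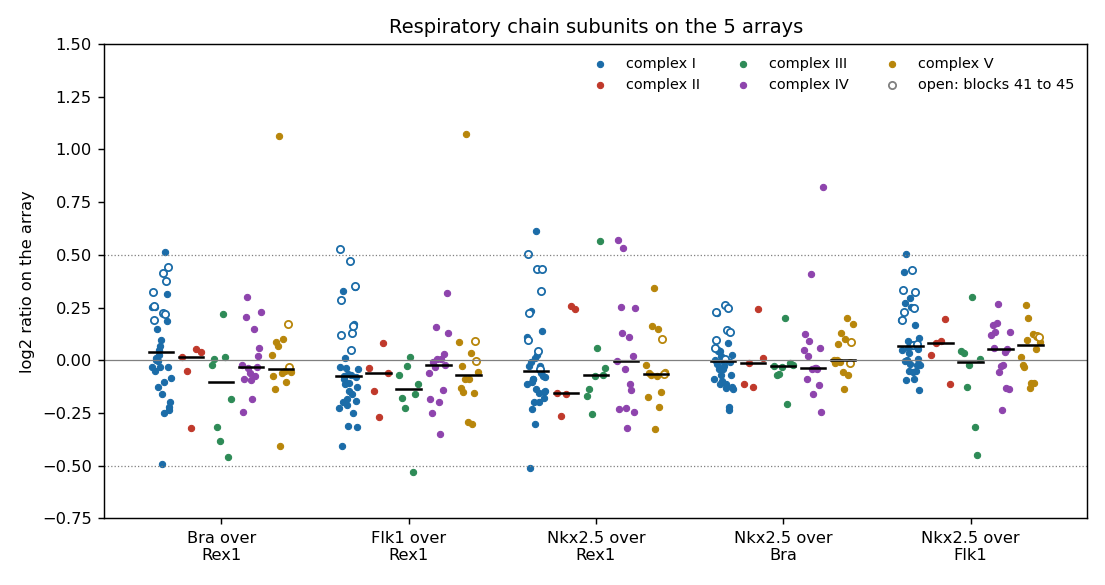
The log2 ratio of each subunit probe is plotted on each of the 5 arrays, coloured by complex, with a bar at the median of each complex and dotted lines at -0.5 and 0.5. Open circles are probes printed in blocks 41 to 45, and most points lie between the dotted lines on every array.

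The marker genes show that the populations themselves differed on the same arrays. Zfp42, which encodes Rex1, had a log2 ratio of -1.68 in Nkx2.5 over Rex1, with -2.25 in the second reading. Nkx2-5 had 0.53 and 0.91 there. Kdr, which encodes Flk1, had 0.68 and 0.64 in Flk1 over Rex1, and T, which encodes Brachyury, had 1.07 and 0.73 in Bra over Rex1. All 4 markers passed the limit in the population they name. In Nkx2.5 over Rex1, 15 of 21 probes of the sarcomere list were higher, with a median of 0.95. There 12 of 16 probes of the pluripotency list were lower, with a median of -1.43. The sarcomere list also holds Nkx2-5 and the pluripotency list Zfp42, so these counts include markers given above. The 78 members had a median of -0.06 there. Markers of other cell types moved with this comparison: 6 of 8 probes of blood genes and 6 of 13 probes of endoderm genes were called higher in it, with medians of 1.26 and 0.47, and their part in the members' values was not tested.

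**Figure D2:**
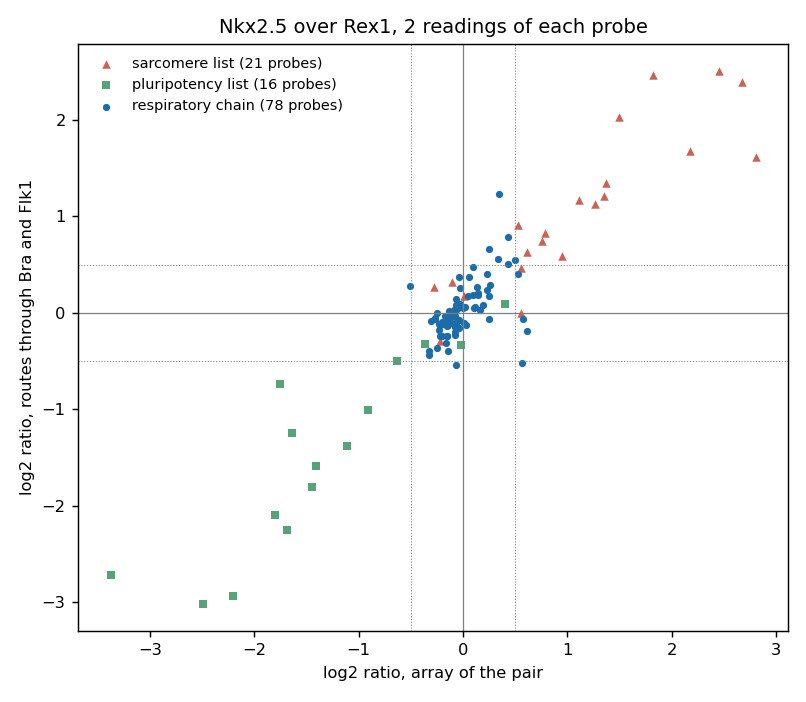
The reading from the array of the pair (x axis) and the reading from the other arrays (y axis), both log2 ratios of Nkx2.5 over Rex1, are plotted for the 78 respiratory chain probes, the 21 sarcomere probes and the 16 pluripotency probes, with dotted lines at -0.5 and 0.5. The respiratory chain probes gather around the origin, while the sarcomere probes reach the upper right and the pluripotency probes the lower left.

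The position of a spot on the array moved with its ratio. The probes are printed in 48 blocks, and in blocks 41 to 45 the median log2 ratio over all probes was between 0.355 and 0.688 in Nkx2.5 over Rex1, between 0.562 and 0.692 in Flk1 over Rex1 and between 0.279 and 0.883 in Bra over Rex1. In the other 43 blocks the medians on these 3 arrays ran from -0.347 to 0.256. These 5 blocks hold 2983 probes, and 59.3% of all probes called higher in Nkx2.5 over Rex1 lay in them. Of the members, 10 are printed there: Ndufa2, Ndufa11, Ndufb7, Ndufb8, Ndufs1, Ndufs3, Ndufs5, 1 of the Ndufa10 probes, Atp5k and Atp5l. Their median in Nkx2.5 over Rex1 was 0.163, against -0.0732 for the other 68 members. Of those 68, 0 were called in any of the 6 comparisons. Outside the 5 blocks, 3.38% of all probes were called higher in Nkx2.5 over Rex1 and 4.47% lower.

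**Figure D3:**
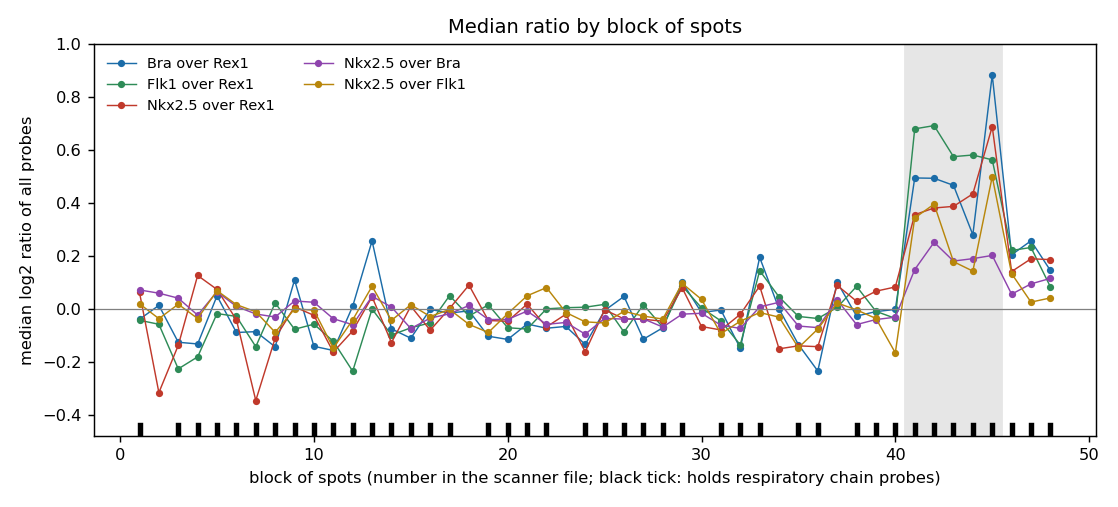
The median log2 ratio of all probes is plotted for each of the 48 blocks of spots on the 5 arrays, with blocks 41 to 45 shaded and black ticks under blocks that hold respiratory chain probes. On every array the shaded blocks stand above the others, with medians up to 0.883 in Bra over Rex1.

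A small lean of the whole chain was seen in Flk1 over Rex1. The median over members was -0.0687, with -0.0932 in the second reading, while that of the brightest 25% of probes was 0.000795 and -0.0015. Both readings were below 0 for 44 members and above 0 for 12, so 56.4% of members lay below 0 in both, against 34.2% of the brightest probes. The size is under the error of 1 array for a single member, and the direction was the same under every normalisation tried, with medians between -0.171 and -0.0453. Some other mitochondrial lists leaned the same way in Flk1 over Rex1. The mitochondrial ribosome had a median of -0.138, with 54 of 92 probes below 0 in both readings and 14 above. Mitochondrial import had -0.0816, with 22 of 37 below and 8 above. Assembly factors, at 0.00353, did not lean. The median was -0.06 in Nkx2.5 over Rex1, where it also kept its side in every setting, between -0.165 and -0.0189, and -0.000186 in Bra over Rex1. Those among the 3 differentiated populations changed side with the normalisation. They lay at -0.0102 in Nkx2.5 over Bra, at 0.0567 in Nkx2.5 over Flk1 and at -0.0524 in Flk1 over Bra. In the loess fit used here each array is centred at every brightness, so a change shared by most bright probes would not be seen in any of these medians.

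Complex I is the largest complex and the entry point of electrons from NADH. Its 34 probes had medians of -0.05 in Nkx2.5 over Rex1, -0.07 in Flk1 over Rex1 and 0.04 in Bra over Rex1. Of the 10 members printed in blocks 41 to 45, 8 are complex I probes. Ndufa10, an accessory subunit, held the chain's only call. The called probe had log2 ratios of 0.50 in Nkx2.5 over Rex1, 0.53 in Flk1 over Rex1, 0.32 in Bra over Rex1, 0.19 in Nkx2.5 over Flk1 and 0.06 in Nkx2.5 over Bra, with a second reading of 0.55 in Nkx2.5 over Rex1. It stood above Rex1 on all 3 arrays that carried Rex1. The other, brighter Ndufa10 probe, in block 40, had -0.11, -0.03, -0.03, 0.05 and 0.000613 on the same arrays in that order. The probes of this gene disagreed. With loess fitted within each block the called probe had -0.00853 in Nkx2.5 over Rex1, and -0.195 in the second reading.

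Ndufs5, an accessory subunit, and Ndufb7, a membrane arm subunit, are also printed in these blocks. Ndufs5 in block 44 had 0.43 in Nkx2.5 over Rex1, 0.35 in Flk1 over Rex1 and 0.44 in Bra over Rex1, and Ndufb7 in block 42 had 0.43, 0.47 and 0.41. With loess within blocks, these values were 0.22, 0.05 and 0.23 for Ndufs5 and 0.03, -0.18 and -0.01 for Ndufb7. Neither was called in either setting. Ndufs4, a subunit whose loss causes a well-known mitochondrial disease model in mice, has 2 probes outside these blocks. The dimmer of them had 0.14 in Nkx2.5 over Rex1, 0.35 in Flk1 over Rex1 and 0.31 in Bra over Rex1, and the brighter had -0.06, 0.17 and 0.19. Both Ndufs4 probes lay below 0 in both readings of Nkx2.5 over Bra, at -0.22 and -0.24 on the array, without reaching the limit.

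Several small accessory subunits of complex I had their lowest readings in Flk1. In Flk1 over Rex1 the brighter Ndufa3 probe had -0.41 and -0.45, and the brighter Ndufb4 probe -0.31 and -0.43. In Flk1 over Bra, 17 of the 34 complex I probes were below 0 in both readings and 0 were above 0 in both. Of all 28845 probes, 7858 were below and 7468 above there, and of the 7212 brightest probes 2297 and 1884. Ndufa1, a small membrane subunit, had -0.48 and -0.28 there, the brighter Ndufb4 probe -0.41 and -0.34, the brighter Ndufa3 probe -0.36 and -0.20, and Ndufa5 -0.20 and -0.22. The dimmer probes disagreed: that of Ndufb4 had 0.38 and -0.28 there, and that of Ndufa3 0.07 and -0.02, with 0.33 in Flk1 over Rex1. None reached the limit in both readings. With median centring in place of loess, 9 complex I probes lay below 0 and 9 above 0 in both readings of Flk1 over Bra, so that this lean depended on the normalisation. In Nkx2.5 over Flk1, some of these genes lay above 0 in both readings: the brighter Ndufa3 probe had 0.42 and 0.38, Ndufa1 0.19 and 0.34, and Ndufa5 0.27 and 0.19. The dimmer Ndufa3 probe had -0.00144 and -0.84 there. Ndufa6, another accessory subunit, had 0.50 and 0.32 there.

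The core subunits of complex I, which hold the flavin and iron-sulphur clusters that carry the electrons, gave no call. In Nkx2.5 over Rex1, Ndufv1, which binds NADH, had -0.15 and Ndufv2, its partner, had -0.08. Ndufs7 and Ndufs8, which hold the clusters next to ubiquinone, had -0.15 and -0.18. Ndufs1, the largest core subunit, had -0.04. Ndufs3, in block 45, had 0.33. Ndufs8 was among the lowest members in Bra over Rex1, at -0.24 and -0.20. Ndufc1, an accessory subunit, had -0.20 and -0.24 in Nkx2.5 over Rex1.

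Complex II, succinate dehydrogenase, is also an enzyme of the citric acid cycle. Sdha, the flavoprotein, had -0.16 in Nkx2.5 over Rex1, -0.04 in Flk1 over Rex1 and 0.02 in Bra over Rex1. The brighter probe of Sdhb, the iron-sulphur protein, had -0.27, -0.14 and -0.05, and the dimmer had -0.16, -0.27 and -0.32. Of the membrane anchors, only Sdhc kept to the other side, with 0.26 and 0.29 in Nkx2.5 over Rex1. Sdhc also had 0.24 and 0.20 in Nkx2.5 over Bra. Sdhd had 0.25 in Nkx2.5 over Rex1 but -0.06 in the second reading, so no direction is drawn for it. In Nkx2.5 over Flk1, Sdhc had 0.19, Sdhd -0.11, Sdha 0.03 and the Sdhb probes 0.08 and 0.09. All 5 probes kept both readings within 0.5 of zero in all 6 comparisons, and without background subtraction Sdhc had 0.000308 in Nkx2.5 over Rex1.

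Complex III had medians of -0.07 in Nkx2.5 over Rex1, -0.14 in Flk1 over Rex1 and -0.10 in Bra over Rex1. Uqcrc1, a core protein, was among the lowest members: its brighter probe had -0.25 and -0.37 in Nkx2.5 over Rex1, -0.23 and -0.13 in Flk1 over Rex1, and -0.31 and -0.19 in Bra over Rex1. Uqcrfs1, the Rieske iron-sulphur protein, had -0.04, -0.11 and -0.18 on the same 3 arrays, and Uqcrb had -0.14, -0.18 and 0.01. The probe named Uqcr, for the gene now called Uqcr11, had -0.17, -0.07 and -0.02. Uqcrc2, the other core protein, has 3 probes, which disagreed. Its brightest probe had 0.06, 0.02 and 0.22, and the next had 0.57, -0.53 and 0.02 with a second reading of -0.52 in Nkx2.5 over Rex1. That probe and the dimmest were not well above background in Rex1 on all 3 arrays, and no direction is drawn for Uqcrc2.

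Complex IV is the complex whose composition is known to change in heart, because several of its subunits come in a muscle form and a more general form. Cox6a2 is the heart and skeletal muscle form of subunit VIa, and Cox6a1 the form of other tissues. Cox6a2 had 0.53 in Nkx2.5 over Rex1, 0.16 in Flk1 over Rex1, -0.03 in Bra over Rex1, 0.27 in Nkx2.5 over Flk1 and 0.41 in Nkx2.5 over Bra. It was above 0 on all 3 arrays that carried Nkx2.5, as were other members, among them Cox6a1, Cox8a, Cox5b and Sdhc. Nkx2.5 was in the Cy5 channel on each of these arrays, so dye and population cannot be told apart there. The second readings of Cox6a2 were 0.40 in Nkx2.5 over Rex1, 0.37 in Nkx2.5 over Flk1 and 0.56 in Nkx2.5 over Bra. In no comparison did both of its readings reach the limit. Cox6a1 had 0.13 and 0.27 in Nkx2.5 over Rex1, 0.18 and 0.16 in Nkx2.5 over Flk1, and 0.09 and -0.17 in Nkx2.5 over Bra. Cox6a2 lies in block 1, whose median was 0.06 in Nkx2.5 over Rex1, and with loess within blocks it had 0.37, 0.22 and 0.31 in Nkx2.5 over Rex1, Flk1 and Bra. Without background subtraction these were 0.08, 0.09 and 0.14. By the smaller of the 2 readings, Cox6a2 was the only member among the 5 highest in each of the 3 Nkx2.5 comparisons.

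The other muscle forms lay below 0 on the 3 arrays that carried Nkx2.5, although Cox8b did not with loess within blocks. Cox7a1, the heart and muscle form of subunit VIIa, had -0.32 and -0.40 in Nkx2.5 over Rex1, -0.24 and 0.03 in Nkx2.5 over Flk1, and -0.04 and -0.14 in Nkx2.5 over Bra, while the general form Cox7a2 had 0.11 and 0.05, -0.02 and 0.10, and -0.04 and -0.04. Cox8b, the heart and muscle form of subunit VIII in mice, had -0.24 and -0.00268 in Nkx2.5 over Rex1, -0.14 and -0.56 in Nkx2.5 over Flk1, and -0.25 and -0.30 in Nkx2.5 over Bra. Cox8a, the general form, had 0.02, 0.06 and 0.06 on these arrays. With loess within blocks Cox8b had 0.03, 0.07 and -0.18 in Nkx2.5 over Rex1, Flk1 and Bra, and Cox7a1 -0.40, -0.25 and -0.04. Cox8b was not well above background in Rex1 on 1 of 3 arrays. Cox4i2, the lung-enriched and oxygen-responsive form of subunit IV, had 0.57 in Nkx2.5 over Rex1 but -0.07 in the second reading, and the general form Cox4i1 had -0.00187 and 0.05.

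**Figure D4:**
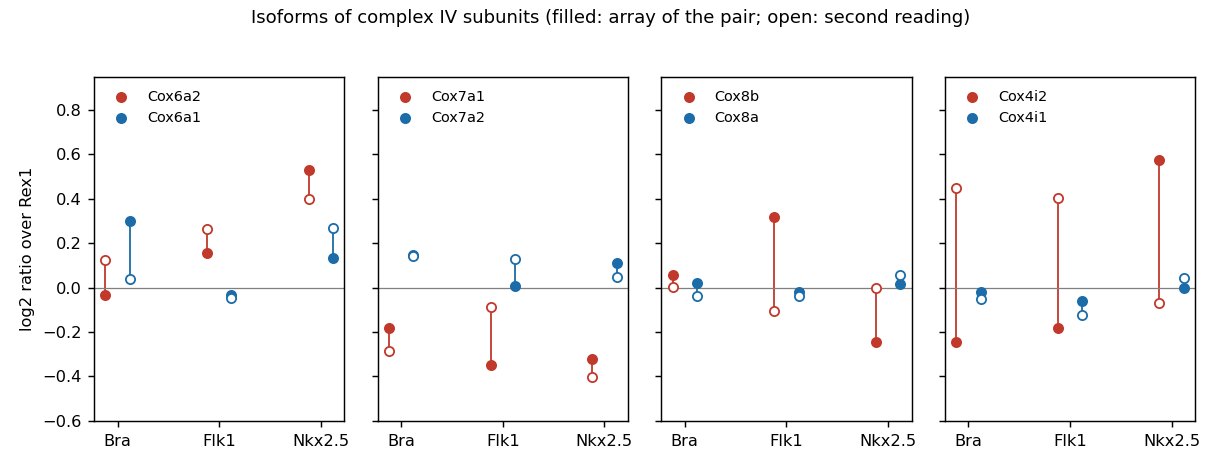
The log2 ratio over Rex1 is plotted for 4 pairs of complex IV isoforms in Bra, Flk1 and Nkx2.5, with the array of the pair as a filled circle, the second reading as an open circle and a line between them. Cox6a2 has its highest values in Nkx2.5, at 0.53 and 0.40, Cox7a1 is below 0 in all 3 populations, and the readings of Cox4i2 fall on opposite sides of 0.

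The remaining complex IV subunits stayed near 0. Cox5a had -0.23 in Nkx2.5 over Rex1 and -0.25 and -0.29 in Flk1 over Rex1, Cox5b had 0.25 in Nkx2.5 over Rex1 and 0.20 and 0.23 in Bra over Rex1, and Cox6c had -0.22 and -0.24 in Nkx2.5 over Rex1. Cox7c, which lies at the bright end of the array, had -0.14, and Cox7b -0.11. Ndufa4 had the single largest ratio of complex IV, 0.82 in Nkx2.5 over Bra, against 0.02 in the second reading. Its spot was dim on that array, with a net signal of 5712 for Nkx2.5 and 3912 for Bra, whereas on the array with Flk1 it had 14554 for Nkx2.5 and 11064 for Flk1. The ratio of that 1 array was therefore not matched by the other routes.

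Complex V joins the catalytic F1 head to the proton channel Fo. Atp5g1 encodes one of the isoforms of the c subunit, which forms the rotating ring of Fo, and was below 0 in both readings over Rex1 in all 3 populations. It had -0.32 in Nkx2.5 over Rex1, -0.29 in Flk1 over Rex1 and -0.41 in Bra over Rex1, with second readings of -0.44, -0.19 and -0.27. It lay below Rex1 in all 3 populations and differed little between them, at -0.13 in Nkx2.5 over Flk1 and -0.05 in Nkx2.5 over Bra. Its spot was among the brightest on the array, and no reading pair reached the limit. In the deposited series table, whose column medians lie below 0, it did, with -0.512 and -0.795 in Nkx2.5 over Rex1. Atp5g2, another c subunit isoform, had -0.07, -0.09 and -0.06 over Rex1 in Nkx2.5, Flk1 and Bra. Isoforms of this subunit are alike in sequence, and how far a probe also reads its relatives is not known here.

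The F1 head was level. Atp5b, the catalytic beta subunit, had -0.17, -0.13 and -0.08 over Rex1 in Nkx2.5, Flk1 and Bra with its brighter probe and -0.06, -0.03 and -0.13 with the other. Atp5a1, the alpha subunit, had -0.02, 0.09 and 0.03, and Atp5c1, the gamma subunit that turns inside the head, had -0.07, -0.15 and 0.09. Atp5e, also of F1, had 0.16, -0.09 and 0.07. Atp5c1 was among the lowest members in Flk1 over Bra, at -0.24 and -0.19, and had 0.26 on the array of Nkx2.5 over Flk1. Atp5o, in the stalk that holds the head still, had -0.05, -0.06 and -0.06. The largest ratios of the chain belonged to Atp5f1, the b subunit of that stalk, now named Atp5pb: 0.34 in Nkx2.5 over Rex1, 1.07 in Flk1 over Rex1 and 1.06 in Bra over Rex1, with second readings of 1.23, 0.14 and 0.21. Its spot was not well above background in Rex1 on any of 3 arrays, so that these ratios have no firm size. With the lowest signal that counts as above background in place of Rex1, the channel means would put Atp5f1 at least 1.23-fold higher in Bra, but the second reading of 0.21 is a smaller ratio than that, and no fold can be given for Flk1 or Nkx2.5. No size is drawn for Atp5f1.

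Probes of 1 gene did not always give 1 answer. In Nkx2.5 over Rex1 the Ndufb4 probes had -0.14 and 0.61, the Ndufa3 probes -0.02 and -0.51 and the Ndufa10 probes -0.11 and 0.50. In each case the brighter probe, given first, was the closer to 0. The probes of Atp5b, Sdhb, Uqcrc1 and Ndufs4 lay nearer to each other there, with ranges of 0.112, 0.108, 0.18 and 0.199.

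Genes around the chain were also described from lists. Of 37 probes for assembly factors, 3 were higher and 1 lower in Nkx2.5 over Rex1. One probe of Cox16, an assembly factor of complex IV, had 0.52 and 0.56 there, 0.62 and 0.52 in Flk1 over Rex1 and 0.73 and 0.74 in Bra over Rex1, and was called higher in all 3, while the other Cox16 probe had -0.10, 0.03 and 0.08. Ndufaf3 and Tmem126b, assembly factors of complex I, were called in Nkx2.5 over Rex1 from blocks 41 and 44, with 0.49 and 0.28 after loess within blocks. Nubpl, which helps to place iron-sulphur clusters in complex I, was lower at -0.72 and -0.54. With loess within blocks 0 of the 37 were called in Nkx2.5 over Rex1, the first Cox16 probe having 0.45 and 0.61 and Nubpl -0.29 and -0.39. Of 22 probes for the electron carriers and their synthesis, 0 were called in Nkx2.5 over Rex1, where 7.44% of all probes were higher and 4.05% lower, and within blocks 1 was higher.

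The mitochondrial ribosome, which translates the subunits encoded in mitochondrial DNA, had 5 probes higher and 4 lower of 92, with a median of -0.14 in Nkx2.5 over Rex1, where 7.44% of all probes were higher and 4.05% lower. With loess within blocks 4.13% of all probes were higher and 3.15% lower, and the same backgrounds hold for the lists that follow. One probe each of Mrpl15, Mrpl37, Mrpl38 and Mrps25 was lower, at -0.67, -0.81, -0.69 and -0.65, while the other probes of Mrpl15, Mrpl37 and Mrpl38 lay between -0.49 and 0.05 and were not called. Within blocks the list had 2 higher and 4 lower, with Mrpl37 no longer called, at -0.79 and -0.47. The 2 higher within blocks were 1 probe of Mrpl54, at 0.54 and 1.30, and 1 of Mrpl17, at 0.60 and 0.66. Another Mrpl54 probe had 0.45 and 0.92 and was not called. Of 37 probes for mitochondrial protein import, 2 were higher and 1 lower, and within blocks 0 were called. The citric acid cycle had 1 of 19 probes higher, Idh2 in block 45, at 1.09 and 1.63, and within blocks Idh2 had 0.67 and 0.77 and the list 2 higher. Of the energy lists, fatty acid oxidation had 2 higher and 3 lower of 19 probes, and 2 and 1 within blocks. Glycolysis had 4 higher and 5 lower of 44, and 2 and 4 within blocks. Fabp3, the fatty acid binding protein of heart and muscle, was lower at -0.89 and -0.88. The 2 probes of its list called higher within blocks were of Decr1, at 1.17 and 1.09 and at 0.51 and 0.62. In glycolysis the muscle enolase Eno3 was higher at 1.45 and 0.99. Within blocks Slc2a3 was also called higher, at 1.11 and 0.51, while Hk1, Pdk1 and 2 probes of Pfkp were called lower.

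The regulators named by the promoter motifs had probes called lower in Nkx2.5 over Rex1. Nrf1, which encodes nuclear respiratory factor 1, has 2 probes that disagreed: one was called lower at -0.54 and -0.74, and the other had -0.10 and 0.59. Both probes of Gabpa, the DNA-binding subunit of GABP, were called lower, at -0.63 and -0.64 and at -0.50 and -0.57. Of 3 probes of Myc, a general regulator of growth that also acts on mitochondrial genes, 1 was called lower at -0.93 and -0.86, and the others had -0.40 and -0.22 on the array. In all, 4 of 29 probes for mitochondrial DNA maintenance and regulation were lower and 1, Mterf2 in block 41, was higher, against 4.05% and 7.44% of all probes, and within blocks 3 were lower and 0 higher, against 3.15% and 4.13%. Within blocks the weaker Gabpa probe had -0.41 and -0.49 and was not called. In Flk1 over Rex1 neither that first Nrf1 probe, at -0.36 and -0.21, nor Gabpa, at -0.34 and -0.37 and at -0.39 and -0.28, passed the limit.

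**Figure D5:**
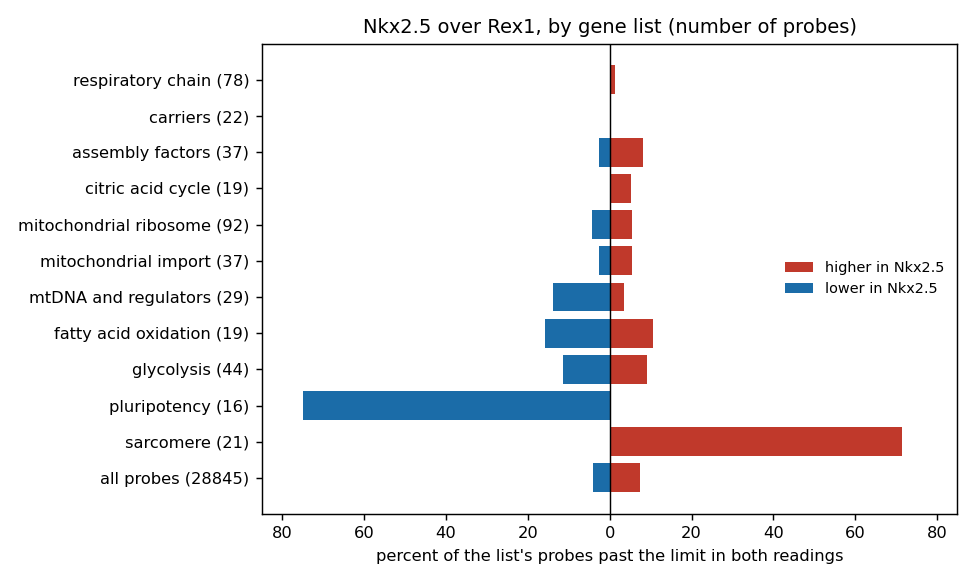
For each gene list, the percentage of its probes past the limit in both readings (Nkx2.5 over Rex1) is drawn to the right where higher in Nkx2.5 and to the left where lower, with the number of probes in parentheses. The bar of the respiratory chain stands for 1 of 78 probes, those of the sarcomere and pluripotency lists for 15 of 21 and 12 of 16.

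Some respiratory genes are printed under other names and were not members by the rule. The current annotation gives such a name to 28 probes of 23 genes, assembly factors included. Their median was 0.03 in Nkx2.5 over Rex1, 0.03 in Flk1 over Rex1 and 0.06 in Bra over Rex1. In Nkx2.5 over Rex1, 2 of the 28 were called higher and 0 lower, against 7.44% and 4.05% of all probes, and those 2 were the assembly factors Cox16 and Ndufaf3 given above.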

How the data were processed

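RNA of 4 populations was read on 5 two-colour arrays. Per the file headers, the deposited scanner files give for each of 30000 spots a background-subtracted median signal intensity and a background intensity in each dye. The deposited series table holds log2 ratios made by the authors and was used as an alternative. For unflagged spots they equal the log2 scanner ratio of Cy5 over Cy3 less a constant for each array, from -0.0987 to 0.729. Their column medians were -0.0846 to -0.00732, and they were not centred further here. For the scanner, the image software and the genome build, nothing is stated in the sources used here. Channel 2 of the labels, Cy5, was taken as the numerator.

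Foreground was rebuilt as signal plus background and corrected with normexp (offset 50), and each array was normalised by loess, with weight 0 for control, quality check and empty spots. These steps ran in R 4.3.3 with limma 3.58.1, and the others in Python 3.11.15. The 28845 gene probes were kept one by one. Well above background means over percentile 95 of 96 negative control spots. All calls use the log2 limit of 0.5 in both readings. There is no replicate and so no test, and the precision is limited by the number of arrays. Names came from the file, updated by unversioned accession, symbol or synonym through RefSeq: 47, 30 and 1 of the 78 members. The calling step was tested on simulated data.

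The named members were drawn from the 5 with the highest and the 5 with the lowest smaller reading in each comparison. Only members with both readings on 1 side of 0 were ranked. Some of those ranked, such as Ndufb2 and Ndufb9 among the lowest in Nkx2.5 over Flk1, are not given above. Every member called, all complex II members, the isoform pairs and the genes with disagreeing probes were also named. Other members are named as the other subunits of their complex. Single values of some members are not reported here, and all 78 enter the counts and medians. The members and gene lists were chosen with earlier results of these data known, and blocks 41 to 45 (median over 0.25 on all 3 arrays with Rex1) after the values were seen. Alternatives covered background correction, centring, loess within blocks, the series table, a filter on dim probes, 1 probe per gene, the second reading, least squares over all arrays, a limit of 1, and leaving out those blocks.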

Additional observations from a re-analysis of the deposited data

How the results depend on the processing

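No call of a member was stable. The Ndufa10 call in Nkx2.5 over Rex1 remained with median centring and with the filter on dim probes; its count of calls became 0 without background subtraction, with plain subtraction, with loess within blocks, in the series table, with the brightest probe per gene, at a limit of 1 and, chosen after seeing the data, without blocks 41 to 45. The Ndufa10 ratio turned to -0.0867 without background subtraction and to -0.00853 with loess within blocks, where the cause was not tested. Plain subtraction and the series table each called 1 member higher in Bra over Rex1 and 1 in Flk1 over Rex1, Atp5f1 both times, and the series table called 1 lower, Atp5g1, in Bra over Rex1 and in Nkx2.5 over Rex1. Over all probes, calls higher in Nkx2.5 over Rex1 numbered 2147, against 1192 with loess within blocks, 873 outside blocks 41 to 45, 774 at a limit of 1 and 54 without background subtraction, and calls lower 1168, against 910, 1156, 204 and 53. Medians over members, in the order Bra, Flk1 and Nkx2.5 each over Rex1, then Nkx2.5 over Bra, Nkx2.5 over Flk1 and Flk1 over Bra, were -0.0674, -0.105, -0.115, 0.0199, -0.0192 and 0.0128 with median centring, -0.215, -0.171, -0.165, 0.0375, -0.132 and 0.0796 in the series table, and -0.0473, -0.0932, -0.0189, -0.0375, 0.0148 and -0.0729 in the second reading. The series table's own medians over all probes on the arrays were -0.0846 to -0.00732. Of 1848 ratios of named members under the alternatives, 1710 moved by less than 0.244, the error of 1 array over all probes. Over the members that error was 0.169, and the ratios that moved by less than this were not counted. Complex medians were counted by a different rule, not given here, and 105 of 300 moved. No paired analysis was possible because each pair of populations was hybridised once. Signal over background limits Rex1 most, in the Cy3 channel, where the median net signal was 0.307 to 0.345 of the background.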
